A study of Mus musculus with 36 samples.

Results

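The major urinary proteins are the products of the Mup genes, and 17 of the 56605 probes on the array carried a gene name made of Mup and a number. Those 17 probes stood for 11 gene names, namely Mup1, Mup2, Mup3, Mup4, Mup5, Mup6, Mup11, Mup17, Mup19, Mup20 and Mup21, and all 17 were well above background on all 36 arrays. The liver RNA came from 36 male mice of C57BL/6J background, aged 11 weeks, fed a chow diet ad libitum and left untreated, with 1 array a mouse and 6 mice in each of 6 groups. In the group labelled IRLKO, called knockout here, both alleles of the insulin receptor gene Insr had LoxP sites around the fourth exon, and a tamoxifen-inducible Cre under the transthyretin promoter (TTR-CreTam) acted in hepatocytes. The labels call the other group IRLWT, called control here, and name it IRhep+/+ in the design text. They do not say whether controls carried Cre or the floxed alleles, nor when tamoxifen was given. Each genotype was sampled at Zeitgeber time 8, 12 and 16 (ZT8, ZT12, ZT16), with lights on at ZT0 and off at ZT12.

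Major urinary proteins are small lipocalins that hepatocytes make in large amounts, release into blood and lose into urine, where they carry volatile scent molecules and act as signals between mice. Their genes and pseudogenes sit in 1 cluster on mouse chromosome 4, and many members of the central part of the cluster are nearly identical in sequence. In the liver, Mup transcription is known to be higher in males than in females, to depend on the pulsatile growth hormone of males acting through STAT5, and to respond to androgen, glucocorticoid, thyroid hormone and insulin.

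Near-identical members can bind each other's probes, so the probe sequences set what each value can mean. The 17 probes lay between 59969824 and 61809669 on chromosome 4 (mm9, the build in the file headers), a span of 1839846 bases. The RefSeq transcripts listed for a probe, of which the files gave at most 4, matched several Mup genes for 5 probes, a single gene for 8 and no RefSeq gene for 4. The 5 shared probes were those named Mup1, Mup2, Mup17, Mup19 and the Mup21 probe A_55_P2743972, which matched Mup1, Mup2, Mup19 and Mup21. The Mup1 probe and that Mup21 probe overlapped by 45 bases with 3 differences.

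A Mup6 probe and a Mup20 probe shared 27 bases with 1 difference (C39T from the 5′ end of the Mup6 probe), although the accessions listed for each matched a single gene. The pair is shown because so short a difference separates probes of 2 gene names, and capitals mark the differing base.
Mup6 probe A_52_P387467: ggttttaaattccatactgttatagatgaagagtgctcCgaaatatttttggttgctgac
Mup20 probe A_55_P2051486: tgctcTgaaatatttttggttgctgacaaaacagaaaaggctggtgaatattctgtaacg

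Further 3′ the family also shared sequence, as windows of 30 bases of 3 member probes and of a pseudogene probe, Mup-ps16, show. Capitals mark positions at which any of the 4 differ.
Mup4 probe A_51_P266883: tctgtgatctgcTttccatcCtgtctCacA
Mup19 probe A_55_P1974080: tctgtgatctgcAttccatcCtgtctCacT
Mup20 probe A_55_P2063654: tctgtgatctgcTttccatcGtgtctTacA
Mup-ps16 probe A_55_P2083233: tctgtgatctgcTttccatcAtgtctCacA

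Within these windows the Mup4 and Mup20 probes differed at 2 positions, as did Mup4 and Mup19, and Mup19 and Mup20 differed at 4. Among the members, the Mup3 probe A_55_P1971237 and the Mup5 probe overlapped none of the other member probes by 20 or more bases, and they are shown as probes matched to a single gene. The Mup3 probe shared 60 bases with 3 probes that the files describe as Mup pseudogenes, at 8 or 9 differences, and the Mup5 probe shared 32 bases with another at 5 differences.
Mup3 probe A_55_P1971237: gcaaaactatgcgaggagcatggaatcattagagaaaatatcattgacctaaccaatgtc
Mup5 probe A_52_P412506: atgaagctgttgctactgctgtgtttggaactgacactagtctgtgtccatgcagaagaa

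Levels are given as log2 of the processed signal minus the array's 75th percentile of it, and a difference of 1 is a factor of 2 (a log2 difference). Levels of different probes are not compared, because probes differ in binding strength. Of 2 Insr probes, A_55_P2173927 was lower in every knockout mouse than in every control mouse of the same time, by 1.77 to 1.88 at ZT8 and ZT12 and by 1.65 at ZT16 (log2). The other, A_52_P6490, was also called lower, at -0.95, -1.46 and -0.59, but its groups overlapped at ZT16. No spot was saturated, and the brightest Mup spots (the Mup21 probe A_55_P2743972, Mup1 and Mup19) reached 64.3%, 60.3% and 59.4% of the scanner's saturation value. One liver, knockout ZT8 replicate 3, stood apart from its group over the whole array: it was the lone lowest or highest of its group on 6.36% of probes, against a median of 0.934% over the 36 mice, and its median correlation with its group, 0.971, was the lowest of all. Member counts and fitted ZT8 member differences that this liver clearly moved are given with and without it, as are some other counts. RNA here comes from whole liver, so fewer cells of a type and less RNA per cell cannot be told apart.

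Mup signal was lower in knockout livers. At ZT8, 11 of the 17 probes passed the test (limma over all 34769 probes that passed the filter, adjusted p below 0.05), all of them lower in the knockout, where 33.6% of all probes were called and 17.4% were called lower. At ZT12, 7 of 17 were called, all lower, against 39.2% of all probes and 20.8% lower. At ZT16, 5 were called lower and 1 higher, against 37.8% of all probes, 19.1% lower and 18.7% higher. Over the 17 probes the median differences at these times were -1.53, -1.17 and -0.64, and over all probes they were near 0 (0.01 at ZT8). The medians without knockout ZT8 replicate 3 were -0.70, -1.19 and -0.73, so that ZT8 no longer had the lowest. Without knockout ZT8 replicate 3 the count called became 7 at ZT8 (34.1% of all probes), 16 at ZT12 (41.3%) and 13 at ZT16 (40.4%). Fitted on the 12 mice of each comparison alone, so that no other group entered the spread, the counts in order of time were 6, 14 and 16 (26.1%, 35.6% and 35.2% of all probes). The 7 probes called without it at ZT8 were all among the 11 called with it.

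**Figure D1:**
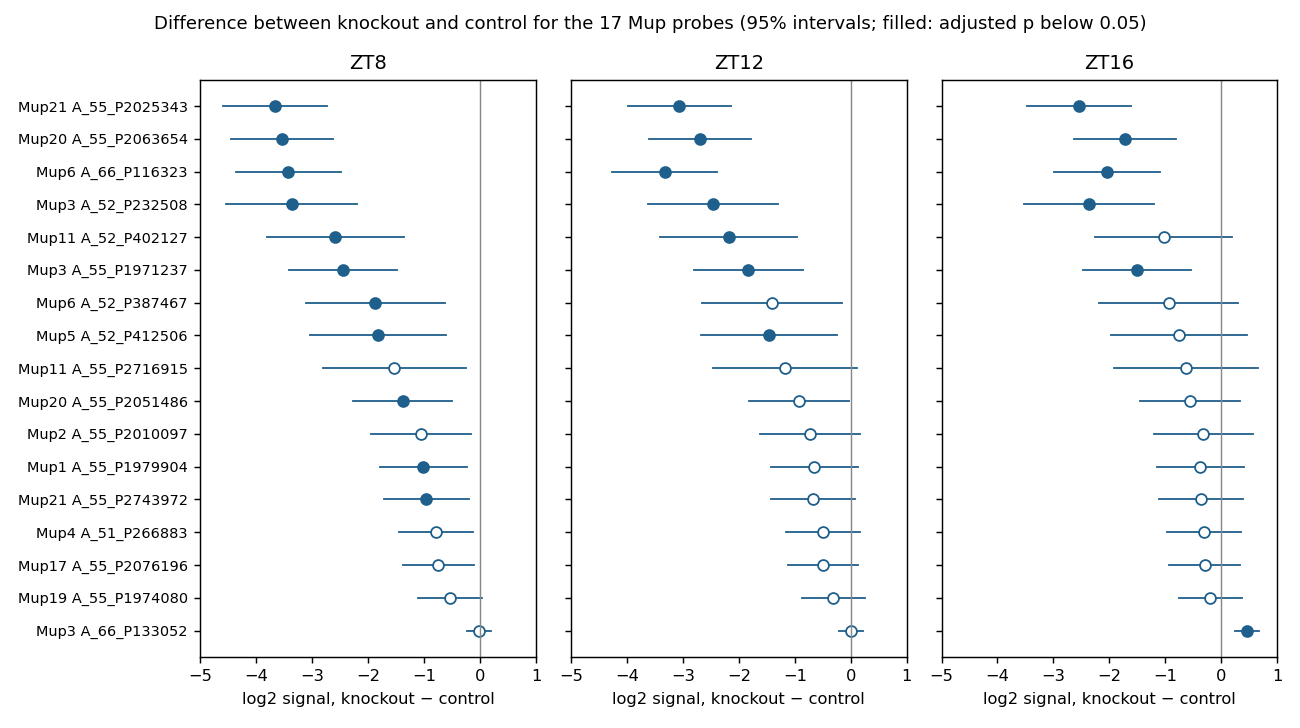
Difference in log2 signal between knockout and control for each of the 17 Mup probes at ZT8, ZT12 and ZT16, with 95% intervals of the limma fit. Filled points passed the adjusted p threshold of 0.05. The probes named Mup21 A_55_P2025343, Mup20 A_55_P2063654, Mup6 A_66_P116323 and both Mup3 probes in the upper rows lie left of 0 at all times, and the dim Mup3 probe A_66_P133052 lies right of 0 at ZT16.

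Among the individual genes, Mup20 encodes darcin, the protein pheromone of male urine that attracts females. Its 3′ probe A_55_P2063654 (chr4:61711407-61711466, mm9, minus strand) read 9.27, 9.74 and 9.83 in control ZT8 livers (lowest, median and highest of 6) and 3.24, 6.64 and 7.57 in knockout ZT8 livers. At ZT12 the same 3 values were 9.25, 9.82 and 9.93 in controls and 5.85, 6.89 and 8.46 in knockouts. At ZT16 they were 8.71, 9.48 and 9.63 in controls and 6.39, 7.59 and 8.10 in knockouts. Every knockout liver lay under every control liver at each time. The fitted difference was -3.54 ± 0.44 at ZT8 (SE, n = 6 a group, adjusted p = 2.66e-07), which is 8.57% of the control signal, then -2.69 and -1.72 at the later times (adjusted p = 1.55e-05 and 0.00269).

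Mup21, a peripheral member of the cluster, was the most lowered name at ZT8 when read by its 3′ probe A_55_P2025343 (chr4:61808866-61808925, minus strand). Control livers gave 7.39, 7.83 and 7.96 at ZT8, 7.25, 7.82 and 8.15 at ZT12, and 6.86, 7.43 and 7.68 at ZT16 (lowest, median and highest). Knockout livers gave 1.20, 4.83 and 5.38 at ZT8, 3.04, 4.86 and 5.76 at ZT12, and 3.60, 4.86 and 5.14 at ZT16. The highest knockout liver was below the lowest control liver at all 3 times. Differences were -3.66 ± 0.45 at ZT8 (SE, adjusted p = 2.24e-07), and -3.06 and -2.54 at the later times (adjusted p = 3.16e-06 and 4.90e-05). The knockout kept 7.89%, 12.0% and 17.2% of the control signal. With knockout ZT8 replicate 3 left out, the differences were -3.12, -3.08 and -2.60 in order of time.

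Mup3 lies beside Mup20 and Mup21 in the cluster and was read by 2 bright probes. The 3′ probe A_52_P232508 (chr4:61744500-61744548, minus strand) gave 9.50, 9.72 and 9.92 in control ZT8 livers and 2.27, 7.33 and 7.86 in knockout ZT8 livers. At ZT12 the values were 9.60, 9.74 and 9.80 against 4.90, 7.59 and 8.51, and at ZT16 they were 9.58, 9.70 and 9.82 against 5.79, 7.44 and 7.58. Controls kept within 0.42 log2 units at each time, knockouts spread over 1.79 to 5.59, and the groups did not overlap. The differences were -3.37 ± 0.57 at ZT8 (SE, adjusted p = 2.85e-05), and -2.47 and -2.36 at the later times (adjusted p = 0.000928 and 0.00150). The other bright Mup3 probe, A_55_P1971237 (chr4:61745794-61745853), was also lower at all 3 times without overlap, by -2.45, -1.83 and -1.50 (adjusted p = 0.000163, 0.00274 and 0.0128). Leaving out knockout ZT8 replicate 3, the 3′ probe stood at -2.60, -2.49 and -2.44, nearly level over time. A_55_P1971237 then stood at -1.73, -1.85 and -1.58.

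Mup6 was read by a 3′ probe, A_66_P116323 (chr4:60019933-60019992, plus strand), whose listed accessions matched no RefSeq gene. It gave 6.67, 7.50 and 7.73 in control ZT8 livers and 1.23, 4.27 and 5.32 in knockout ZT8 livers. At ZT12 it gave 6.58, 7.63 and 8.08 against 2.62, 4.26 and 5.46, and at ZT16 5.78, 6.86 and 7.41 against 3.24, 4.88 and 5.08. The groups did not overlap at any time, and the control ZT16 livers were the most spread of the 3 control groups (SD 0.60). Differences were -3.43 ± 0.46 at ZT8 (SE, adjusted p = 9.21e-07), and -3.33 and -2.05 at the later times (adjusted p = 1.13e-06 and 0.000785). When knockout ZT8 replicate 3 was left out they were -2.92, -3.34 and -2.10, with ZT12 the lowest. The other Mup6 probe, A_52_P387467, whose accessions matched Mup6 alone, was called only at ZT8, at -1.87 (adjusted p = 0.0177), and stood at -1.41 and -0.94 later (adjusted p = 0.0664 and 0.233). With knockout ZT8 replicate 3 left out it lost the ZT8 call (adjusted p = 0.0632) and was called at the later times, at -1.43 and -1.03 (adjusted p = 0.00448 and 0.0389).

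**Figure D2:**
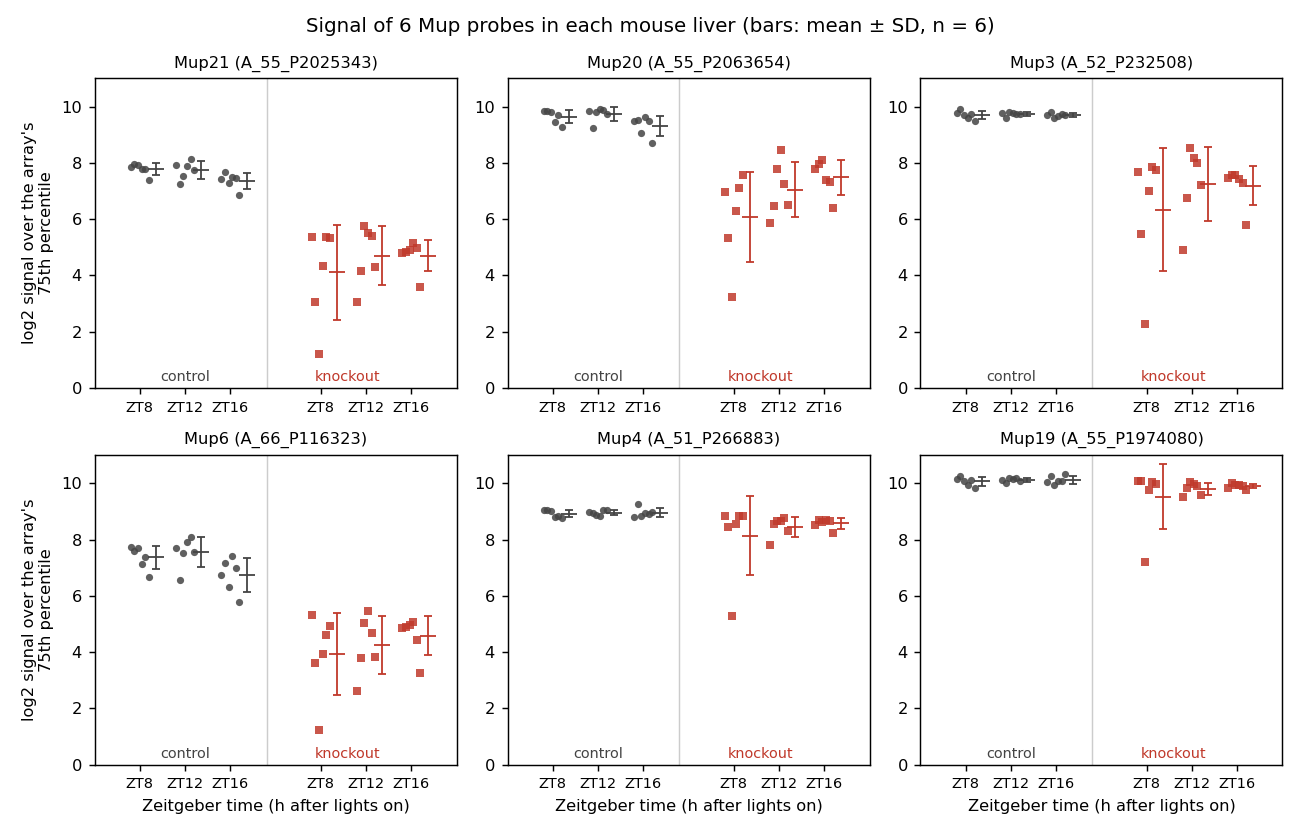
Log2 signal over the array's 75th percentile in each mouse liver for 6 Mup probes, with control mice as grey circles on the left and knockout mice as red squares on the right of each panel, by Zeitgeber time in hours. Bars are mean ± SD of 6 mice. Knockout livers sit below all controls for Mup21, Mup20, Mup3 and Mup6, while for Mup4 and Mup19 most knockout livers sit close to the controls and knockout ZT8 replicate 3 lies far below.

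Those 5 probes (2 of Mup3 and 1 each of Mup6, Mup20 and Mup21) were the members called lower at all 3 times, and they remained called under every alternative processing and every left-out mouse that gave them a value. Groups did not overlap, with the knockout lower, for 5 members at ZT8, 6 at ZT12 and 9 at ZT16, where 8.73%, 11.9% and 9.30% of all probes did the same. The added members were Mup4 at ZT12 and ZT16 and, at ZT16, Mup5, Mup17 and the Mup20 probe A_55_P2051486. Taken within each of the 3 wash batches and each time, the difference lay between -5.74 and -2.46 for Mup21 A_55_P2025343, between -5.47 and -1.46 for Mup20 A_55_P2063654, between -5.95 and -1.87 for Mup3 A_52_P232508 and between -5.08 and -1.68 for Mup6 A_66_P116323.

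The genes of the central cluster, Mup1, Mup2, Mup11, Mup17 and Mup19, encode most of the Mup protein of male urine. Those of their probes matched to several genes had differences of -1.06 to -0.19. Mup19 (chr4:61439496-61439555, minus strand) spanned 9.84 to 10.27 in control ZT8 livers, against a lowest, median and highest of 7.19, 10.02 and 10.09 in knockout ZT8 livers. At ZT12 it gave 10.02, 10.13 and 10.18 against 9.52, 9.88 and 10.05, and at ZT16 9.92, 10.08 and 10.33 against 9.78, 9.92 and 9.99. Apart from 1 knockout ZT8 liver, the groups overlapped at each time, and no difference was called at any time (-0.54, -0.31 and -0.19, with 95% intervals from -1.11 to 0.03, from -0.88 to 0.26 and from -0.76 to 0.38). The ZT8 difference of Mup19 was -0.05 when knockout ZT8 replicate 3 was left out. Mup1 (chr4:60512590-60512649) was called only at ZT8, at -1.02 (adjusted p = 0.0407), and without knockout ZT8 replicate 3 it stood at -0.38 there (adjusted p = 0.115). The shared Mup21 probe A_55_P2743972 likewise gave -0.96 (adjusted p = 0.043) with that liver and -0.35 (adjusted p = 0.129) without it. Mup2 and Mup17 were called at no time, at -1.06 and -0.75 at ZT8 (adjusted p = 0.0607 and 0.0614). Without that liver these ZT8 values were -0.36 and -0.21.

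Counts are also given by how many genes a probe was listed for. Of the 8 probes matched to a single gene, 7, 5 and 4 were called lower in order of time, and 5, 8 and 7 without knockout ZT8 replicate 3, where 17.4%, 20.8% and 19.1% of all probes were called lower with all mice. Of the 5 matched to several genes, 2, 0 and 0 were called lower, and both ZT8 calls, Mup1 and the shared Mup21 probe, were lost without knockout ZT8 replicate 3. In the fit without that liver, though, all 5 were called lower at ZT12, at -0.32 (Mup19) to -0.75 (Mup2), with adjusted p between 0.000385 and 0.00791, and 4 of them at ZT16. The shared probes Mup1, Mup19 and Mup21 A_55_P2743972 were also the brightest Mup spots relative to saturation, and the part of spot brightness in the smaller differences was not tested.

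Mup11 was the name of 2 probes that matched no RefSeq gene and gave unequal changes. The files place A_52_P402127 at chr4:60149947-60150006, close to the Mup2 probe (chr4:60149741-60149800), and A_55_P2716915 at chr4:60671856-60671915. The pair may thus read different loci, which was not tested. A_52_P402127 fell by 2.59 at ZT8 and 2.18 at ZT12 (adjusted p = 0.00118 and 0.00450) and stood at -1.03 at ZT16 (adjusted p = 0.180). A_55_P2716915 was called at no time, at -1.53, -1.17 and -0.64 (adjusted p = 0.0595, 0.143 and 0.452). Without knockout ZT8 replicate 3 the ZT8 values of the 2 probes were -1.84 (adjusted p = 0.00326) and -0.64 (adjusted p = 0.271), and A_55_P2716915 was called at ZT12 (-1.19, adjusted p = 0.0206). Both were widely spread in knockout ZT8 livers, with SDs of 1.91 and 2.35.

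Mup4 and Mup5 are members also made in glands of the head, such as the lacrimal and salivary glands. Mup4 (chr4:59969824-59969883, minus strand) gave 8.75, 8.93 and 9.05 in control ZT8 livers and 5.30, 8.69 and 8.84 in knockout ZT8 livers. At ZT12 the values were 8.85, 8.95 and 9.06 against 7.79, 8.60 and 8.76, and at ZT16 8.80, 8.92 and 9.27 against 8.22, 8.65 and 8.70. Knockout livers lay below all controls at ZT12 and ZT16 by a small margin and overlapped them at ZT8. The differences, -0.79, -0.49 and -0.31, were not called when the spread of all groups was shared (adjusted p = 0.0591, 0.240 and 0.488). Without knockout ZT8 replicate 3 they were -0.23 (adjusted p = 0.154), -0.51 (adjusted p = 0.000838) and -0.36 (adjusted p = 0.0139).

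Mup5 (chr4:61496097-61496156, minus strand) fell by 1.83 at ZT8 (adjusted p = 0.0174) and by 1.46 at ZT12 (adjusted p = 0.0498), and stood at -0.75 at ZT16 (adjusted p = 0.335). The ZT12 call held in 18 of 50 alternatives, with adjusted p from 0.00221 to 0.145. Its ZT8 difference was -0.97 without knockout ZT8 replicate 3 (adjusted p = 0.0598). At ZT16 its knockout livers nevertheless all lay below the controls, at 6.41 to 8.31 against 8.32 to 8.86.

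Probes of 1 gene name gave unequal changes, which can be compared within each array. The Mup21 3′ probe minus the shared Mup21 probe was -2.48 ± 0.11 in control and -5.19 ± 0.64 in knockout ZT8 livers (mean ± SD of log2 differences, n = 6, exact permutation test, two-sided, p = 0.00216, adjusted over 15 tests 0.00325, the smallest p that 6 against 6 allows). That gap of -2.71 became -2.38 at ZT12 and -2.23 at ZT16, each without overlap. For Mup20, the 3′ probe minus A_55_P2051486 differed by -2.16, -1.76 and -1.17 between knockout and control, again without overlap at any time. In the fit itself A_55_P2051486 was called lower at ZT8 only, at -1.39 (adjusted p = 0.0141), against -3.54 for the 3′ probe. Without knockout ZT8 replicate 3 it was called at all 3 times, at -0.70, -0.94 and -0.63 (adjusted p = 0.0267, 0.00157 and 0.0315). The Mup3 and Mup6 pairs differed between genotypes at all 3 times too, by -0.65 to -0.91 and by -1.03 to -1.92 (exact permutation tests, adjusted p from 0.00325 to 0.0162). Mup11's pair, whose probes the files place at separate sites, differed at ZT8 and ZT12 and not at ZT16 (-0.36, exact permutation test, adjusted p = 0.0671).

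**Figure D3:**
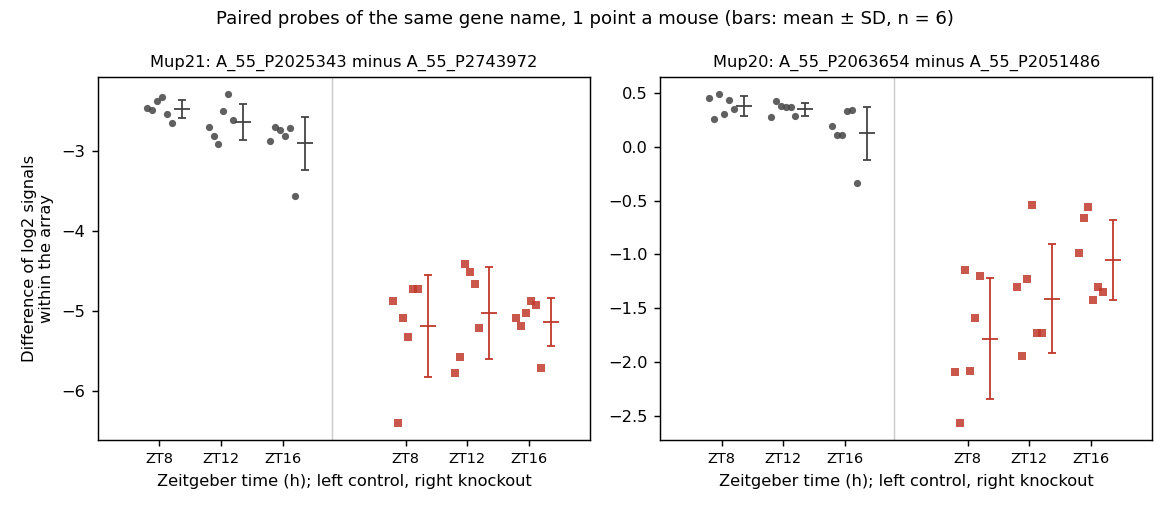
Difference between 2 probes of the same gene name within each array (log2 signal of the 3′ probe minus that of the other), for Mup21 and Mup20, by Zeitgeber time in hours. Control mice are grey circles, knockout mice red squares, and bars are mean ± SD of 6 mice. All knockout livers lie below all control livers at each time for both genes.

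The third Mup3 probe behaved apart from the other members. A_66_P133052 (chr4:61743330-61743389, minus strand) lies beyond the Mup3 3′ probe, was designed on a cDNA clone and not on the RefSeq Mup3 transcript, and was dim. It read -1.42, -1.16 and -1.12 in control ZT8 livers and -1.45, -1.22 and -0.98 in knockout ZT8 livers, then -0.91, -0.77 and -0.49 against -0.58, -0.19 and 0.01 at ZT16. The genotypes shared the same range at ZT8 and the knockouts were mostly higher at ZT16. The differences were -0.03, 0.01 and 0.47, of which only the ZT16 value was called (adjusted p = 0.000859). The change in its genotype effect from ZT8 to ZT16, 0.49 ± 0.15 (SE), had adjusted p = 0.0353, where 8.78% of all probes were called, and without knockout ZT8 replicate 3 it was 0.44 (adjusted p = 0.0547).

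Differences between times were seldom called for the members. In controls 0 of 17 probes were called between ZT8 and ZT12, where 13.6% of all probes were, and 0 between ZT12 and ZT16, where 2.99% were (limma, 1 probe each at unadjusted p below 0.05). Between ZT8 and ZT16, where 25.5% of all probes were called, the dim Mup3 probe A_66_P133052 was the single member called, higher at ZT16 by 0.48 (adjusted p = 0.000928). The other 16 differed between control ZT16 and ZT8 by -0.75 to 0.02 log2 units, with a median of -0.20 and a smallest adjusted p of 0.257.

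In knockouts, with all mice, the median change of the 16 probes was 0.52 from ZT8 to ZT12 and 0.62 from ZT8 to ZT16, both upward. None of the 17 was called from ZT8 to ZT12 (12.3% of all probes, limma, 2 probes at unadjusted p below 0.05), and 1, the dim Mup3 probe, from ZT12 to ZT16 (11.3%). From ZT8 to ZT16, where 28.5% were called, A_66_P133052 rose by 0.97 (adjusted p = 3.27e-08) and Mup20 A_55_P2063654 rose by 1.39 (adjusted p = 0.0173). Without knockout ZT8 replicate 3 that Mup20 rise was 0.85 (limma, adjusted p = 0.0697) and the highest of the 16. The lowest was then Mup11 A_55_P2716915 at -0.32. Most of the 16 were slightly negative, so the upward median from ZT8 to ZT16 did not hold without that liver. The F test for a genotype effect that differs between times called 0 of 17 members, against 7.24% of all probes, with 2 members at unadjusted p below 0.05 (limma). The reductions at ZT16, weaker with all mice, were thus not shown to differ from those at ZT8. The closest was the Mup20 probe A_55_P2063654 at 1.82 ± 0.63 (SE, limma, adjusted p = 0.0683 for ZT16 minus ZT8). Leaving out knockout ZT8 replicate 3 made this 1.22 (adjusted p = 0.106). The medians over the 17 probes were then -0.70 at ZT8 and -0.73 at ZT16.

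Mice of the knockout groups differed far more from each other in Mup signal than control mice did. In controls the median SD of the 16 probes came to 0.21, 0.24 and 0.17 in order of time, close to the medians over all probes of 0.20, 0.21 and 0.24. In knockouts it was 1.71, 0.94 and 0.49, where all probes had 0.28, 0.24 and 0.23, and it was 0.68 at ZT8 without replicate 3. Knockout ZT8 replicate 3 was the lowest of its group for all 16 probes, by 4.07 log2 units on average below the group's median. Knockout ZT12 replicate 1 was likewise lowest for all 16, by 1.59, and knockout ZT16 replicate 6 for all 16, by 0.93. Among controls, ZT12 replicate 2 was lowest for 15 of 16, by 0.65, and ZT8 replicate 6 for all 16, by 0.43. These knockout livers shared slide 3 of 9 (wash batch 1), and these controls shared slide 9. Also on slide 3, control ZT8 replicate 5 and control ZT12 replicate 1 lay on average -0.05 and 0.13 from their group medians. On slide 9 control ZT16 replicate 2, knockout ZT8 replicate 6 and knockout ZT16 replicate 2 lay at 0.22, 0.29 and 0.04. For the low livers, slide and mouse cannot be told apart.

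**Figure D4:**
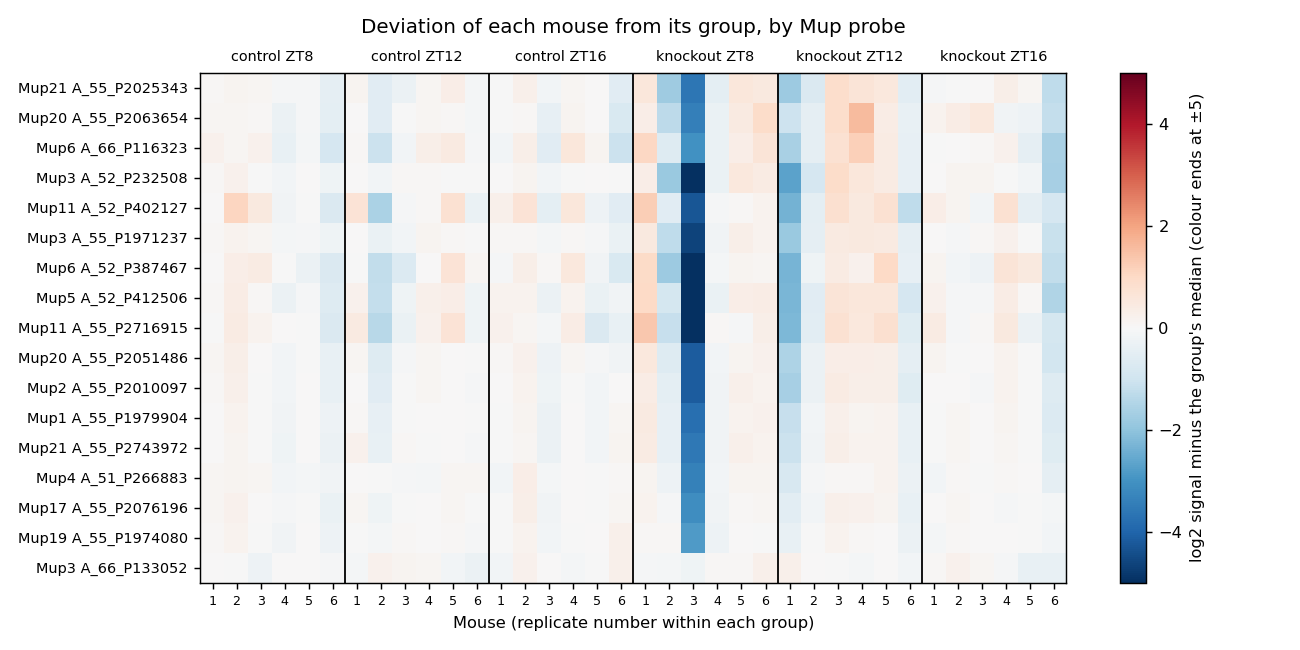
Deviation of each of the 36 mice from the median of its group, for each of the 17 Mup probes (log2 units, blue below and red above the group's median, colour ending at ±5). Whole columns share a colour: knockout ZT8 replicate 3, knockout ZT12 replicate 1 and knockout ZT16 replicate 6 are low on 16 probes at once, and the bottom row, the Mup3 probe A_66_P133052, stays pale.

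The 16 probes rose and fell together from mouse to mouse. With group and wash batch removed, their pairwise correlations over the 36 arrays had a median of 0.925 and ranged from 0.718 to 0.998 (Pearson, 120 pairs, Spearman median 0.881), and without the 2 mice farthest from the median they ranged from 0.566 to 0.994. Within the 18 control arrays alone the median was 0.882. The dim Mup3 probe correlated with them at 0.107 to 0.307. Slide was not removed, and the lowest livers shared slides. These values describe probes that share arrays and, in part, sequence.

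The probe with the highest signal relative to saturation, A_55_P2743972, was set against all probes outside the family. The 5 genes whose residuals followed it most closely were Sult2a8, a sulfotransferase (Pearson r = 0.939), Mgst1, a microsomal glutathione transferase (0.930), the cytochromes P450 Cyp2e1 (0.927) and Cyp2c54 (0.918), and the transcription factor gene Pax2 (0.918), over 36 arrays and 26120 probes. Without the 2 mice farthest from the median these lay between 0.796 and 0.886. Over the levels themselves the 5 were Pax2 (0.933), Cyp2e1 (0.910), Nat8f1 (0.899), Ces3a, a carboxylesterase (0.893), and Aldh2, an aldehyde dehydrogenase (0.881). Without knockout ZT8 replicate 3 and knockout ZT12 replicate 1 they were, in the same order, 0.932, 0.764, 0.802, 0.864 and 0.745. Sult2a8 and Ces3a were also lower in the knockout at ZT8, by -2.87 and -2.98 (adjusted p = 0.000174 and 0.000141), while Cyp2e1 stood at -0.21 (adjusted p = 0.302). The dim probe A_66_P133052 had other nearest genes, led by Hist2h3c1 over residuals (0.705) and by Zfp563 over levels (0.900).

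Other probes placed in the cluster were lower too, where 17.4%, 20.8% and 19.1% of all probes were called lower in order of time. Inside the span lay 11 further probes named or described as Mup or Mup pseudogenes, of which 10, 6 and 3 were called lower in order of time (6, 11 and 5 without knockout ZT8 replicate 3), none of them higher, and their residual correlations with A_55_P2743972 ranged from 0.495 to 0.991. One Mup-ps12 probe gave -3.80, -3.18 and -2.31 and one Mup-ps16 probe -2.41, -1.82 and -1.39, each called at all 3 times. LOC100048884, which RefSeq now names Mup18, stood at -0.53 at ZT8 (adjusted p = 0.134). Its probe shared 35 bases with the Mup17 probe at 0 differences. The Mup-ps16 probe A_55_P2083233 shared 55 bases with the Mup20 probe A_55_P2063654 at 6 differences. Such probes may bind the same transcripts as members, which was not tested. Gm21286, the neighbour inside the span not described as Mup, was called lower at ZT8 and ZT12 (-2.14 and -2.36, adjusted p = 0.00104 and 0.000292). Just outside the span, the 2 probes of Snx30, a sorting nexin, were both slightly higher in the knockout at ZT8 (0.38 and 0.38, adjusted p = 0.0416 and 0.0141), and Zfp37, a zinc finger gene, was not called (0.34, adjusted p = 0.454).

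The RefSeq table of promoters (GRCm38.p6) held 14 Mup genes, Mup1, Mup5 and Mup20 not among them. Identity was read at a single shift of each pair without gaps, so an inserted or lost base can lower it. Those of Mup3 and Mup21, both strongly lowered, matched at 84.0% of 244 bases compared. Mup3 and Mup4 matched at 79.9% and Mup3 and Mup2 at 57.9%. The part of promoter sequence in the lower signal was not tested. Mup6, whose 3′ probe was also strongly lowered, matched Mup3 at 79.2% and Mup4 at 82.7%. The 250 bases before each start are shown for Mup3, Mup21 and Mup4, which was not called with all mice, with capitals marking matches to any motif searched.
Mup3 (chr4:62087318-62087567, minus strand): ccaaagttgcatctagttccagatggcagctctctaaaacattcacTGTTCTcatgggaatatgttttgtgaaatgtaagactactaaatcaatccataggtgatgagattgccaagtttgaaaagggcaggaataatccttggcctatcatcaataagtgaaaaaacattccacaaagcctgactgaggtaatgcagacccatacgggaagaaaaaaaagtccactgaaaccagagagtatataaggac
Mup21 (chr4:62150842-62151091, minus strand): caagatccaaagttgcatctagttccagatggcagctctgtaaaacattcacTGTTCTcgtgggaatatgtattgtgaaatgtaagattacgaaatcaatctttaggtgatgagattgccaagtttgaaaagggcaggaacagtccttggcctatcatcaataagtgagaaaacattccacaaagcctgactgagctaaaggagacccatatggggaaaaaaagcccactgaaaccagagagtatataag
Mup4 (chr4:59960668-59960917, minus strand): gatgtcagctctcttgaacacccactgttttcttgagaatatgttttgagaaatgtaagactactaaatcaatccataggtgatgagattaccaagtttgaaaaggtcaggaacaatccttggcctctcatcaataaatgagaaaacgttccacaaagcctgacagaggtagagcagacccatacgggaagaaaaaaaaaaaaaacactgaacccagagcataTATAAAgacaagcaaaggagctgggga

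A set of 6 motifs was searched on both strands in these windows and in 32851 promoter windows of the same length. The letters AGAACA, a core element of the glucocorticoid receptor, stood in 2 of the 14 Mup promoters, those of Mup3 and Mup21, and in 16.1% of all promoters. TATAAA stood in 2 of 14, those of Mup4 and Mup6, and in 12.4%. The STAT5 letters TTCNNNGAA stood in none of the 14 and in 7.02% of all, as did the forkhead letters GTAAACA (3.17%), the C/EBP letters TTGCNNAA (9.56%) and the HNF1 element (0.00913%). No match in the 14 promoters overlapped another. A match here is a run of letters, not a site of binding, and no match says only that these letters are not in this window.

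The gene lists below were chosen with earlier results of these data known, and counts are read against the shares of all probes called. For every list those shares were 17.4%, 20.8% and 19.1% lower and 16.2%, 18.4% and 18.7% higher, in order of time. Genes of the growth hormone route that acts on Mup genes were followed from a list of 14. Of these, 4 were called lower at each time and 3, 5 and 4 were called higher at ZT8, ZT12 and ZT16. The list medians were near 0, at -0.004, 0.13 and 0.14. Ghr, the growth hormone receptor, fell by 1.63, 1.54 and 1.53 (adjusted p = 1.53e-16, 3.96e-16 and 4.97e-16). Igfals, which binds circulating IGF-1, fell by 1.65, 1.82 and 2.39, and Igf1 itself by 0.55, 0.31 and 0.72, each called. Socs2, a STAT5-induced inhibitor of the receptor's signal, rose by 3.13, 2.93 and 1.50 (adjusted p = 5.52e-06, 1.10e-05 and 0.0128). Stat3 rose by 0.52, 0.56 and 0.68, each called. Stat5b was called higher at ZT12 and ZT16 (0.47 and 0.57) and stood at 0.11 at ZT8 (adjusted p = 0.42).

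Other male-biased liver genes were lowered with the Mup probes. Of 21 tested genes of that list, 18 were called lower at ZT8, 18 at ZT12 and 17 at ZT16, with list medians of -1.41, -1.39 and -1.09. Hsd3b5, a steroid dehydrogenase of male liver, stood at -9.81, -8.77 and -7.23, and the fatty acid hydroxylase Cyp4a12a at -7.79, -8.00 and -6.04, each called. At ZT8, 4 of 6 knockout livers had Hsd3b5 well above background and 3 of 6 had Cyp4a12a, so these values rest in part on signal near background. Cyp2u1 was the exception, called higher at ZT8 and ZT12. Of 17 tested female-biased genes, 14 were called higher at ZT8, 9 at ZT12 and 4 at ZT16, with medians of 2.02, 0.58 and 0.15, and 0, 1 and 1 lower. The one lower was Cyp2a4, a steroid hydroxylase, at -0.76 and -1.70 (adjusted p = 0.0104 and 1.07e-06). Leaving out knockout ZT8 replicate 3, the ZT8 counts of these lists were 17 lower in the male-biased and 14 higher in the female-biased one. Cux2, a repressor of male-biased genes in female liver, rose by 5.50, 4.96 and 3.44. In control ZT8 livers Cux2 was well above background in 2 of 6.

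Of 18 further regulators, 7, 5 and 5 were called lower and 4 at each time higher. At ZT8, 6 were lower and 5 higher without knockout ZT8 replicate 3. The lower counts include Insr, the gene knocked out by design, and the higher ones Cux2, which is also on the female-biased list. Nr3c1, the glucocorticoid receptor, stood at -0.38, -0.56 and -0.67, and Ppargc1a, a coactivator, at 2.19, 2.20 and 1.89, each called. Other lipocalins and secreted carriers went both ways, with 6, 7 and 8 of 18 called lower and 5, 3 and 2 higher (at ZT8, 3 lower and 6 higher without knockout ZT8 replicate 3). Ttr, the thyroid hormone carrier whose promoter drives the Cre, fell by 1.12, 1.02 and 0.97. Apom, a lipocalin of lipoproteins, rose by 0.91, 1.24 and 1.02.

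Markers of cell types were read beside these results. All 10 hepatocyte markers were well above background on every array, and 3, 5 and 4 of them were called lower at ZT8, ZT12 and ZT16, with 0, 1 and 1 higher, where 17.4%, 20.8% and 19.1% of all probes were called lower. The counts lower became 3, 7 and 7 without knockout ZT8 replicate 3. Cyp2f2 fell by 3.34, 2.20 and 1.86, and Alb, albumin, by 0.41, 0.35 and 0.39. Hal went the other way, at 0.12, 0.70 and 1.11, and was the marker called higher at ZT12 and ZT16. The mean of the 10 lay between 7.87 and 7.98 in control ZT8 livers and between 6.84 and 7.81 in knockout ZT8 livers, and knockout ZT8 replicate 3 was the lowest of them at 6.84. Of 6 Kupffer cell and macrophage markers, 1, 4 and 3 were called higher (0, 4 and 3 without that liver), where 16.2%, 18.4% and 18.7% of all probes were, and the mean of the 6 ranged from 1.02 to 1.97 in control and from 1.47 to 2.91 in knockout ZT8 livers, where replicate 3 was the highest. Of 6 endothelial markers 0, 5 and 4 were called higher, and of 6 stellate cell and fibroblast markers 0, 3 and 3. Their part in the lower Mup signal was not tested.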

How the data were processed

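Liver RNA of 36 mice was hybridised to 1 Agilent one-colour array each. Per the file headers and the submitters' processing notes, Agilent Feature Extraction 10.10.1.1 gave a background-subtracted processed intensity, raw mean and background intensities and quality flags (other columns, deposited as 0 or 1) for each spot. The authors also deposited a table of log2 values for 32801 probes that holds the same set of values on each of the 36 arrays (column median 7.65), as quantile normalisation leaves it. Its background steps are unknown. It tracks the scanner's log2 processed values after these were quantile normalised here with outlier-flagged spots left out (r from 0.988 to 0.991). The log2 processed intensity minus each array's 75th percentile was computed, outlier-flagged spots left out and spots of a probe averaged. Probes well above background on at least 6 of 36 arrays (34769 of 56605, 91 of them lacking a value on at least 1 array) were fitted in limma 3.58.1 (R 4.3.3) with 6 group means and wash batch (3 batches of 11 to 13 arrays), with Benjamini-Hochberg adjustment over all of them at 0.05, and SEs and intervals are limma's. Array 75th percentiles ranged from 311 to 525 and 53.7% to 63.1% of spots were well above background. The number of arrays limits the precision. The labels give separate mice. The fit was tested on simulated data with known changes. Members and gene lists were chosen with earlier results of these data known. Named genes were all 17 Mup probes, Insr, the 5 genes with the highest correlation to the brightest Mup probe and to the Mup probe unlike it, and, in each list, at most 5 by limma p. Other genes of these lists, markers and neighbours are named after their values were seen. Alternatives were normexp, quantile normalisation, the authors' table, other batch terms, filters, array weights, outlier spots kept, 1 probe a gene and leaving out each mouse. Sequences are from the array files and RefSeq tables. Some items withheld for evaluation are not reported here.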

Additional observations from a re-analysis of the deposited data

Results flagged for a closer look

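In each group of 6 mice the gap between the highest or lowest liver and its neighbour was set against the group's range (Dixon's criterion at 95%) for the 17 Mup probes in 6 groups, 102 searches, in which chance alone gives about 1 in 20. It singled out 28 values, each the lowest of its group and most of them from 3 mice.

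Knockout ZT8 replicate 3 lay below its group with Mup1 at 5.88, Mup2 at 5.23, Mup4 at 5.30, Mup5 at 2.66, Mup17 at 5.92 and Mup19 at 7.19. In the same liver Mup3 A_55_P1971237 read 2.73, Mup11 A_52_P402127 read -2.54, Mup20 A_55_P2051486 read 4.38 and Mup21 A_55_P2743972 read 6.29. Its hepatocyte marker mean of 6.84 was the lowest of its group, and the part of this in its low Mup signal was not tested.

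Knockout ZT16 replicate 6 stood apart with Mup1 at 9.02, Mup2 at 8.78, Mup4 at 8.22, Mup5 at 6.41 and Mup6 A_66_P116323 at 3.24. Its Mup3 probes A_52_P232508 and A_55_P1971237 read 5.79 and 6.26, Mup20 A_55_P2051486 read 7.74, and the Mup21 probes A_55_P2025343 and A_55_P2743972 read 3.60 and 9.31. Over the whole array this liver was the lone lowest of its group on 2.17% of probes and the lone highest on 1.89%. The median of both together over the 36 mice was 0.934%. Its hepatocyte marker mean of 7.49 was also the lowest of its group, and the part of this in its low Mup signal was not tested.

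Control ZT12 replicate 2 did so with Mup1 at 9.82, Mup2 at 9.39, Mup3 A_52_P232508 at 9.60, Mup5 at 8.03 and the Mup20 probes A_55_P2051486 and A_55_P2063654 at 8.83 and 9.25. The remaining values were Mup21 A_55_P2025343 at 7.39 in control ZT8 replicate 6 and Mup3 A_66_P133052 at -1.42 in control ZT8 replicate 3.

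One difference between times was singled out by its own test: the genotype effect of Mup3 A_66_P133052 was 0.49 higher at ZT16 than at ZT8 (limma, adjusted p = 0.0353).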

How the results depend on the processing

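No Mup probe reversed a called direction under any alternative, and the 5 probes called lower at all times kept those calls in all of them. Fitting only the groups compared called 6 members at ZT8, 14 at ZT12 and 16 at ZT16 (26.1%, 35.6% and 35.2% of all probes). It called 1 from ZT8 to ZT16 in knockouts. Doing so without knockout ZT8 replicate 3, chosen after seeing the data, gave 8, 14, 16 and 1. Array weights called 12 at ZT12. With 1 probe for each of the 11 genes the counts were 6, 3 and 2 at ZT8, ZT12 and ZT16 and 0 in each time comparison, fewer by construction. The F test called 1 member in place of 0 (under normexp, quantile normalisation, the authors' table, no wash batch term, slide as a random block, probes above background on all arrays and array weights). Leaving out each mouse gave 7 to 15 members at ZT8, 6 to 16 at ZT12, 6 to 13 at ZT16, 1 to 2 from ZT8 to ZT16 in knockouts and 0 to 1 in the F test, and knockout ZT8 replicate 3 set the lowest value at ZT8 and the highest at ZT12 and ZT16. Other time counts did not move. In order of time, 33.6%, 39.2% and 37.8% of all probes were called with all mice, and 34.1%, 41.3% and 40.4% without knockout ZT8 replicate 3. Shares of all probes under the other alternatives, the replicate block below among them, are not given. Those counts show only how the member calls moved.

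Replicate numbers 1 to 6 recur in every group but did not pair the mice: deviations of same-numbered mice correlated at -0.322 to 0.195 (mean 0.00300), and the replicate block called 9, 6 and 6 members at ZT8, ZT12 and ZT16. Probe brightness, cross-binding between paralogs and the number of arrays limit what the smaller differences can show.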
